A study of Mus musculus with 8 samples.

Results

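The keratin genes described here are those whose proteins build the filaments of the suprabasal layers of the epidermis: Krt1, Krt2, Krt10, Krt24, Krt77, Krt78 and Krt80. They were chosen by gene symbol, and all 7 were found among the 32574 genes of the deposited expression table, which holds 54 keratin genes in all. The study measured RNA by bulk sequencing in mouse skin epidermis after ablation of the basal lineage, in work on tissue fluidity and clonal expansion during skin repair. Cells were isolated by fluorescence-activated sorting, and the study describes them as basal epidermal cells. There were 4 groups of 2 libraries. K14 control and Lrig1 control carry the genotype label WT, and K14 ablation and Lrig1 ablation carry the genotype label Basal lineage ablation. The labels do not say what K14 and Lrig1 refer to, which could be a driver, a gate or the lineage removed, so the names stand here for populations. The ablating agent, the time after ablation and the age of the mice are also not stated there. Nothing says whether the libraries of a group are from different animals. A p-value thus reflects the spread between libraries, pooled over the 4 groups in the main fit, and this spread may be technical.

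Keratins form intermediate filaments as obligate heteropolymers of a type I and a type II chain. Basal keratinocytes make Krt5 and Krt14, and cells that leave the basal layer switch to Krt1 and Krt10, the main filament pair of the spinous layer. Krt2 is a type II keratin of the upper spinous and granular layers that can partner Krt10. Krt10 and Krt24 are type I chains, encoded in the keratin cluster on mouse chromosome 11, and the other 5 are type II chains, encoded in the cluster on chromosome 15.

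Depth was 6458636 to 11654135 reads per library, recovered from the normalised values, and 1 read was worth 0.708 to 1.41 normalised reads. A count of 3 reads corresponded to 2.12 to 4.23 normalised reads, and no member was under that floor in any library. The libraries of the control groups were close to each other (chi-square per gene 1.57 in K14 and 2.58 in Lrig1), and those of the ablation groups were further apart (27.7 in K14 and 39.5 in Lrig1). The main fit pools the spread over the 4 groups, so a comparison of the controls also draws on the spread of the ablation libraries. Values of each library are given in the order 1, 2 within its group. In bulk RNA, fewer cells of a type and less RNA per cell cannot be told apart.

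In Lrig1 ablation all 7 suprabasal keratins were lower than in Lrig1 control with no overlap between the groups, which held for 26.4% of the 18140 genes tested. In that comparison 5 of the 7 fell past the threshold, an adjusted p under 0.05 (Krt2, Krt10, Krt24, Krt78 and Krt80), against 3.3% of all genes tested that fell and 4.06% that passed in either direction. In K14 ablation none of the 7 passed, against 0.187% of genes called in either direction, and the members went in different directions: Krt2, Krt10, Krt24 and Krt78 were lower without overlap (25.7% of genes tested), Krt1 was higher without overlap (27.4% of genes tested), and Krt77 and Krt80 overlapped with their controls. Between the control groups 4 of 7 were higher in Lrig1 past the threshold (Krt24, Krt77, Krt78 and Krt80), against 6.52% of genes tested that were higher and 8.79% that passed in either direction. All 7 were higher in Lrig1 control without overlap, as were 34.5% of genes tested. The median log2 difference of the 7 was -2.46 in Lrig1 ablation, -0.60 in K14 ablation and 1.56 between the controls, and the median of all genes tested was within 0.02 of 0 in each.

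**Figure D1:**
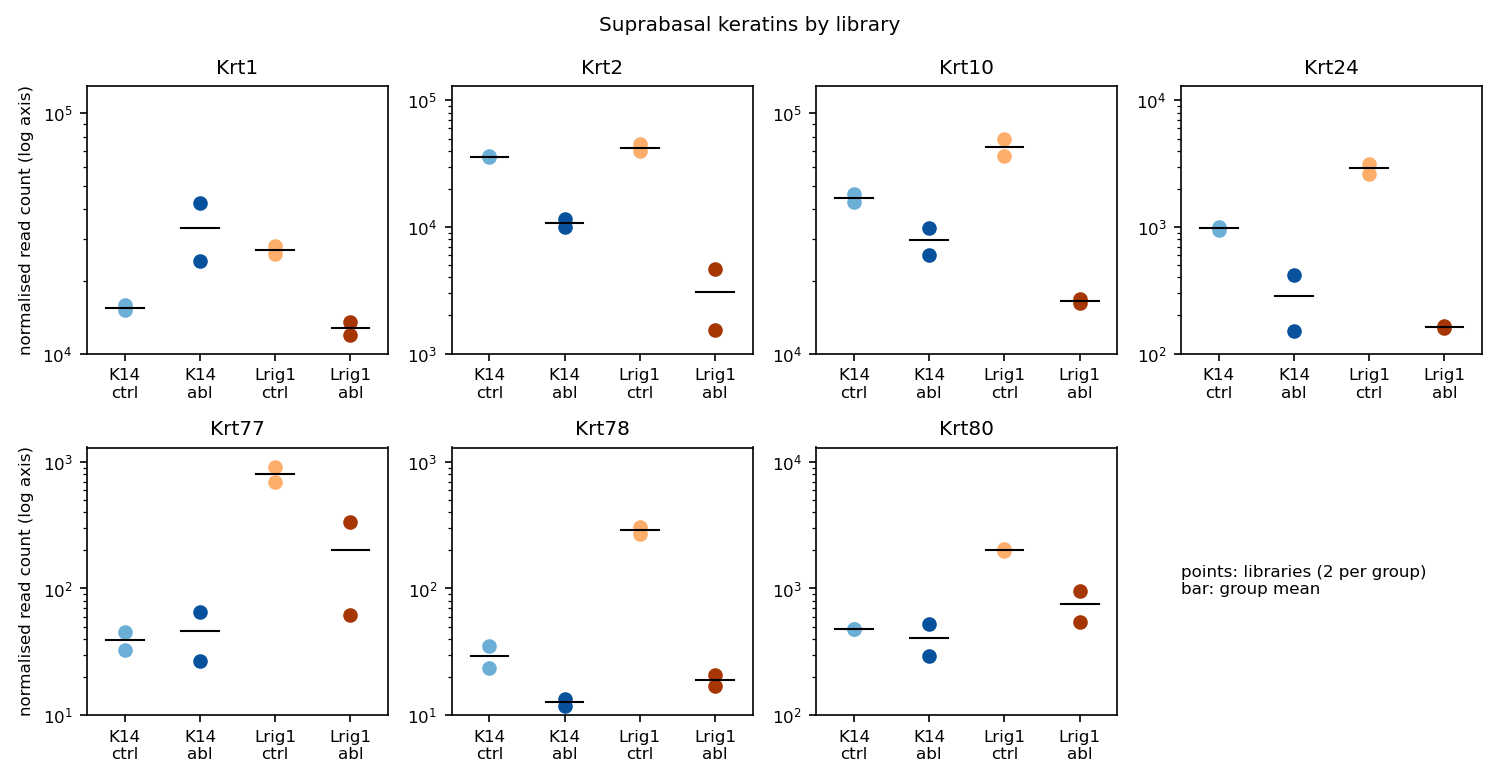
Normalised read count (log axis) of each of the 7 keratins in the 8 libraries, with points for libraries and a bar for the mean of the 2 libraries in each group (ctrl, control; abl, ablation). Krt1 is the member whose K14 ablation libraries, at 42464 and 24209, both lie above their controls, at 15925 and 15135.

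Krt10 (ENSMUSG00000019761, GRCm38 chr11:99385254-99389364, minus strand), the type I chain of the spinous pair, was the most abundant member per kilobase in each group. Its normalised read count was 46312 and 42573 in the K14 controls, 33301 and 25807 after K14 ablation, 66749 and 78428 in the Lrig1 controls, and 16215 and 16815 after Lrig1 ablation. The groups did not overlap, with Lrig1 control highest and Lrig1 ablation lowest. Krt10 fell 4.4-fold in Lrig1 ablation, at a log2 difference of -2.13 ± 0.25 (SE, adjusted p = 0.00602). In K14 ablation it was 1.5-fold lower, at -0.60 ± 0.25 (adjusted p = 0.37), and between the controls it was at 0.70 ± 0.25 (adjusted p = 0.129).

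Krt1 (ENSMUSG00000046834, chr15:101845426-101850794, minus strand), the type II partner of Krt10, did not follow Krt10 in K14 ablation. Its normalised read count was 15925 and 15135 in the K14 controls, 42464 and 24209 after K14 ablation, 26052 and 28142 in the Lrig1 controls, and 13588 and 11995 after Lrig1 ablation. Both K14 ablation libraries were above their controls and both Lrig1 ablation libraries below theirs. The log2 difference was 1.05 ± 0.28 in K14 ablation (adjusted p = 0.221) and -1.08 ± 0.28 in Lrig1 ablation (adjusted p = 0.0763). The ablation effect in Lrig1 minus that in K14 was -2.13 ± 0.40 (adjusted p = 0.0754), so the opposite directions did not pass the test of their difference. DESeq2 on the recovered reads gave 1.1 in K14 ablation (adjusted p = 0.00278), -1.07 in Lrig1 ablation (adjusted p = 0.00129) and -2.17 for the difference (adjusted p = 1.96e-06), all past the threshold, where DESeq2 called 1.22%, 5.5% and 1.67% of genes. In Lrig1 ablation limma also called Krt1 without K14 ablation 1 (adjusted p = 0.0195, 5.9% of genes called), K14 ablation 2 (adjusted p = 0.0203, 5.8% of genes) or Lrig1 ablation 1 (adjusted p = 0.0497, 13.9% of genes).

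Krt2 (ENSMUSG00000064201, chr15:101810689-101818169, minus strand), the keratin of the upper layers, was lower in all 4 ablation libraries than in any control library. It was at 35716 and 36049 normalised reads in the K14 controls, 11463 and 10075 after K14 ablation, 39589 and 45047 in the Lrig1 controls, and 4615 and 1544 after Lrig1 ablation. The Lrig1 ablation libraries were the lowest, and the furthest apart from each other on the log scale. Krt2 fell 13.7-fold in Lrig1 ablation, at a log2 difference of -3.98 ± 0.43 (adjusted p = 0.00457). In K14 ablation it was 3.33-fold lower, at -1.74 ± 0.43 (adjusted p = 0.19 in limma and 0.000238 in DESeq2). Between the controls Krt2 was at 0.23 ± 0.43 (adjusted p = 0.799), nearest to 0 of the 7.

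Krt24 (ENSMUSG00000020913, chr11:99279959-99285262, minus strand) is the other type I member, a keratin of differentiating keratinocytes. It was at 1003 and 953 normalised reads in the K14 controls, 151 and 415 after K14 ablation, 2638 and 3158 in the Lrig1 controls, and 164 and 158 after Lrig1 ablation. Every ablation library was below every control library, and the ablation groups overlapped with each other. Krt24 fell 18-fold in Lrig1 ablation, at a log2 difference of -4.15 ± 0.39 (adjusted p = 0.00253). In K14 ablation it was at -1.96 ± 0.39 (adjusted p = 0.132 in limma and 8.17e-05 in DESeq2). Between the controls it was 2.96-fold higher in Lrig1, at 1.56 ± 0.39 (adjusted p = 0.0453), and this call was lost without the filter on low values (adjusted p = 0.061) and with a stricter one (adjusted p = 0.05, not under the threshold).

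Krt78 (ENSMUSG00000050463, chr15:101946001-101954287, minus strand), a type II keratin of suprabasal cells, was the lowest member per kilobase in each group. It was at 23.4 and 35.4 normalised reads in the K14 controls, 13.4 and 11.8 after K14 ablation, 271 and 306 in the Lrig1 controls, and 16.9 and 20.7 after Lrig1 ablation. The Lrig1 control libraries stood above the other 6, which lay between 11.8 and 35.4. Krt78 fell 15.4-fold in Lrig1 ablation, at a log2 difference of -3.88 ± 0.31 (adjusted p = 0.00197). It was 9.81-fold higher in Lrig1 control than in K14 control, at 3.28 ± 0.31 (adjusted p = 0.00302). In K14 ablation it was at -1.13 ± 0.31 (adjusted p = 0.228), and the difference of the ablation effects was -2.74 ± 0.44 (adjusted p = 0.0652).

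Krt80 (ENSMUSG00000037185, chr15:101347444-101370162, minus strand), a type II keratin found near desmosomes in differentiating epithelial cells, was at 478 and 480 normalised reads in the K14 controls, 293 and 523 after K14 ablation, 1979 and 2065 in the Lrig1 controls, and 541 and 960 after Lrig1 ablation. Both Lrig1 control libraries were above the other 6, and K14 ablation spanned its controls. Krt80 fell 2.69-fold in Lrig1 ablation, at a log2 difference of -1.49 ± 0.32 (adjusted p = 0.0435). That call was lost with edgeR (adjusted p = 0.0596, with 3.24% of genes called), with only the groups compared in the fit (adjusted p = 0.0835) and without the filter on low values (adjusted p = 0.057). Between the controls Krt80 was 4.22-fold higher in Lrig1, at 2.07 ± 0.32 (adjusted p = 0.00903), and in K14 ablation it was at -0.29 ± 0.32 (adjusted p = 0.732).

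Krt77 (ENSMUSG00000067594, chr15:101858731-101869705, minus strand), a type II keratin known from epidermis and from sweat gland ducts, was the member that differed most between the controls. It was at 45.7 and 32.5 normalised reads in the K14 controls, 26.9 and 65.4 after K14 ablation, 697 and 919 in the Lrig1 controls, and 61.2 and 338 after Lrig1 ablation. Lrig1 control was above the other groups, K14 ablation spanned its controls, and the Lrig1 ablation libraries were far apart. Krt77 was 20.7-fold higher in Lrig1 control than in K14 control, at a log2 difference of 4.34 ± 0.72 (adjusted p = 0.0121). It was at -2.46 ± 0.72 in Lrig1 ablation (adjusted p = 0.105) and 0.12 ± 0.72 in K14 ablation (adjusted p = 0.961). Without Lrig1 ablation 2 the value in Lrig1 ablation was -3.69 and passed (adjusted p = 0.00756), in a fit that called 11.8% of genes.

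**Figure D2:**
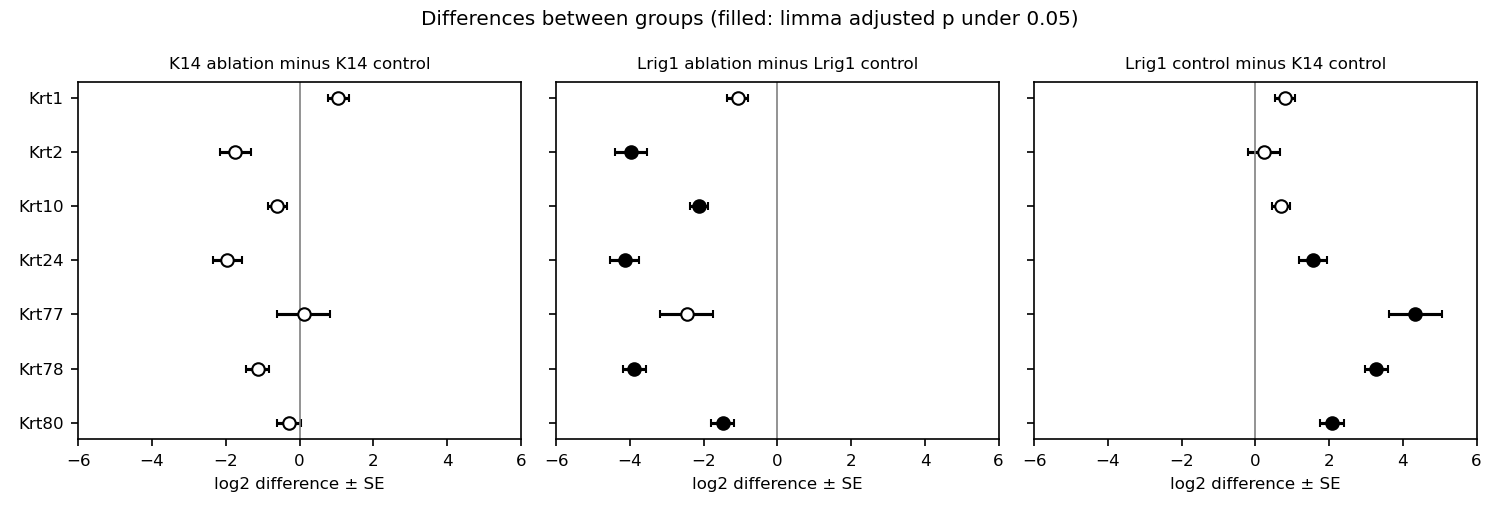
Log2 difference (horizontal axis) with its standard error for the 7 keratins in 3 comparisons, from 1 limma fit of all 8 libraries, with filled points for an adjusted p under 0.05. All 7 lie below 0 in Lrig1 ablation, where 5 are filled, and none is filled in K14 ablation, where Krt1 lies at 1.05 and Krt24 at -1.96.

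These comparisons rest on few libraries. Without either Lrig1 control library, none of the 5 calls in Lrig1 ablation and none of the 4 between the controls was kept. Without either K14 control library, Krt24, Krt77 and Krt80 lost their call between the controls and Krt80 its call in Lrig1 ablation, which it also lost without Lrig1 ablation 1. In K14 ablation 5 of 7 members had an unadjusted p under 0.05 in limma, as did 12.8% of all genes, and the count past the threshold was 0 in edgeR (0.176% of genes called) and 3 in DESeq2 (Krt1, Krt2 and Krt24), which called 1.22% of genes. Without K14 ablation 2, limma called Krt1 and Krt24 there (1.46% of genes called). Without Lrig1 ablation 1 or 2 it called Krt2, with 3.81% and 4.17% of genes called. In Lrig1 ablation all 7 members had an unadjusted p under 0.05, as did 20.1% of all genes.

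The difference of the ablation effects, Lrig1 minus K14, asks whether ablation moved a gene by a different amount in the 2 populations. It was negative for all 7 members, from -2.74 in Krt78 to -1.19 in Krt80, with a median of -2.19 against -0.03 over all genes tested. None of the 7 passed in limma, where 0.198% of genes did, and none in edgeR, where 0.176% did, although all 7 had an unadjusted p under 0.05 (15% of genes). DESeq2 called 5 of 7 (Krt1, Krt2, Krt10, Krt24 and Krt78) and 1.67% of genes. Without Lrig1 ablation 1, limma called Krt1, Krt2, Krt10 and Krt78 (11.2% of genes called), and without Lrig1 ablation 2 it called those and Krt77 (3.11% of genes). Without K14 ablation 1 it called Krt24 (0.46% of genes), and without K14 ablation 2 Krt1 and Krt24 (0.8% of genes).

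The ablation groups were also compared directly. Krt1, Krt2 and Krt10 were lower in Lrig1 ablation than in K14 ablation without overlap (20% of genes tested), Krt78 and Krt80 were higher without overlap (19% of genes tested), and Krt24 and Krt77 overlapped. The log2 differences were -1.33 ± 0.28 for Krt1 (adjusted p = 0.0914), -2.01 ± 0.43 for Krt2 (adjusted p = 0.0948) and -0.83 ± 0.25 for Krt10 (adjusted p = 0.183). None of the 7 passed in limma, against 0.667% of genes called, and none in edgeR (0.744% called), while 5 had an unadjusted p under 0.05 (16.4% of genes). DESeq2 called Krt1, Krt2 and Krt10 lower and 3.67% of genes in either direction. Without Lrig1 ablation 1, limma called Krt1, Krt2, Krt10, Krt77 and Krt80, but also 22.5% of all genes tested. Krt24 alone was called without K14 ablation 1 (1.88% of genes), Krt1 alone without K14 ablation 2 (1.63% of genes) and Krt2 alone without Lrig1 ablation 2 (0.614% of genes).

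The make-up of the suprabasal keratin reads differed between control and ablation libraries, a pattern looked at after the values were seen and not tested. Krt1, Krt2 and Krt10 together held 95.4% to 99.4% of the reads of the 7 in every library. Krt1 held 16% and 15.9% of them in the K14 controls, 48.4% and 39.6% after K14 ablation, 18.9% and 17.8% in the Lrig1 controls, and 38.6% and 37.7% after Lrig1 ablation. All 4 ablation libraries were above all 4 controls. Krt2 held 35.9% and 37.8% in the K14 controls, 13.1% and 16.5% after K14 ablation, 28.7% and 28.5% in the Lrig1 controls, and 13.1% and 4.85% after Lrig1 ablation. Here all 4 ablation libraries were below the controls. Krt10 held 38.0% to 52.8% in all 8 libraries, and its share separated K14 ablation, the lowest group, from the rest but not Lrig1 ablation from its controls.

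**Figure D3:**
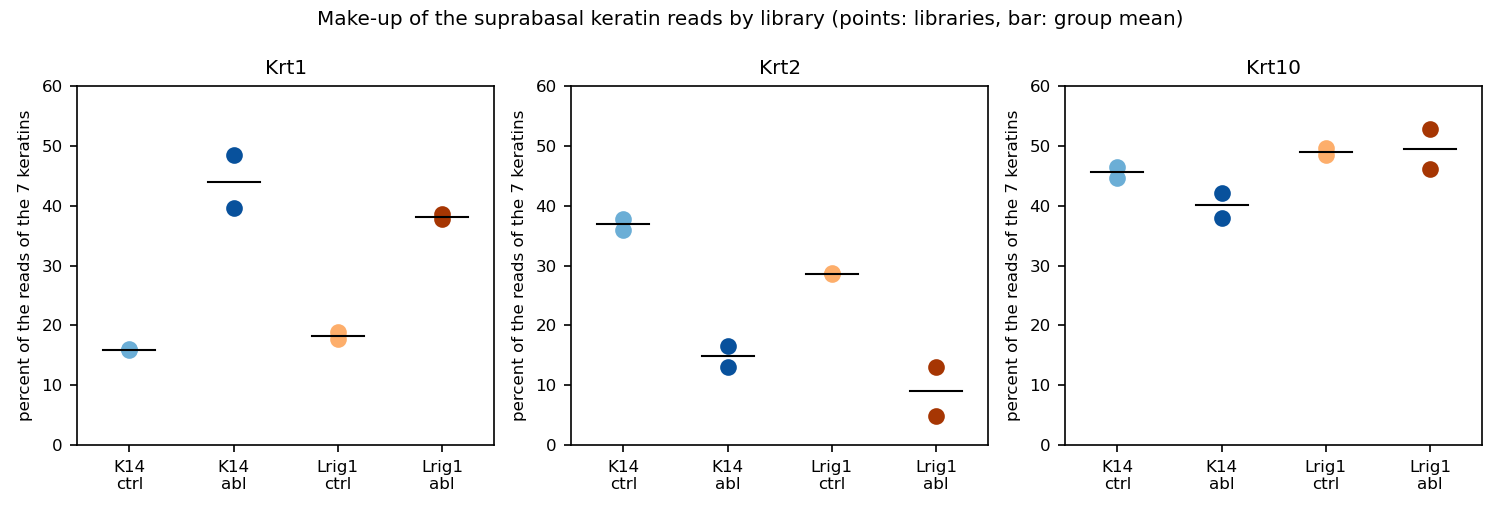
Share of the normalised reads of the 7 keratins (percent, vertical axis from 0) held by Krt1, Krt2 and Krt10 in each library, with points for libraries and a bar for the group mean (ctrl, control; abl, ablation). The Krt1 share is 15.9% to 18.9% in the controls and 37.7% to 48.4% in the ablation libraries, and the Krt2 share is 28.5% to 37.8% in the controls and 4.85% to 16.5% in the ablation libraries.

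Per kilobase of exon, the ratio of the spinous partners Krt1 to Krt10 was 0.165 and 0.170 in the K14 controls, 0.611 and 0.449 after K14 ablation, 0.187 and 0.172 in the Lrig1 controls, and 0.401 and 0.342 after Lrig1 ablation. The ratio was above the controls in each ablation library. The ratio of the upper-layer keratin Krt2 to Krt1 was 3.79 and 4.02 in the K14 controls, 0.456 and 0.703 after K14 ablation, 2.57 and 2.70 in the Lrig1 controls, and 0.574 and 0.217 after Lrig1 ablation. Krt2 exceeded Krt1 in all 4 controls and was below it in all 4 ablation libraries, also with the length of the longest protein-coding transcript, which multiplies each ratio by the same factor in every library. The sum of these type II chains over Krt10 does not change by the same factor, so its comparison between groups depends on the length used. With the exon length it did not separate ablation from control in K14, at 0.789 and 0.855 in control and 0.889 and 0.765 in ablation. In Lrig1, with that length, it was lower in ablation without overlap, at 0.632 and 0.416 against 0.667 and 0.636 in control. With either the longest transcript or the longest protein-coding transcript, the sum was higher in K14 ablation without overlap and overlapped in Lrig1.

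Levels per kilobase of exon (normalised reads, mean ± SD, n = 2) put the members in a fixed order at the top and the bottom. Krt10 was first in each group, at 21023 ± 1250 in the K14 controls, 13980 ± 2507 after K14 ablation, 34337 ± 3907 in the Lrig1 controls and 7812 ± 201 after Lrig1 ablation. In both controls Krt2 came next and then Krt1. In both ablation groups Krt1 came next, at 7551 ± 2924 in K14 and 2897 ± 255 in Lrig1, and then Krt2, at 4121 ± 376 and 1178 ± 831. Krt24, Krt80, Krt77 and Krt78 followed in this order, except that Krt80 was above Krt24 in Lrig1 ablation. Neighbours in this order that overlapped were Krt24 and Krt80 in K14 ablation, Krt80 and Krt77 in Lrig1 control, and Krt24 with both Krt80 and Krt77 in Lrig1 ablation. The exon length of Krt1, 4415 bases, counts every annotated transcript, and with its longest protein-coding transcript, 2455 bases, its level was higher (13579 ± 5258 in K14 ablation) and overlapped with Krt10 there.

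Among all 32427 genes with a length, Krt10 ranked 17 to 36 by level per kilobase over the 8 libraries. Krt1 ranked 31 to 89 and Krt2 ranked 28 to 470, the lowest rank in Lrig1 ablation 2. Krt24 ranked 203 to 5663, and Krt77, Krt78 and Krt80 ranked from 1287 to 18550. The cells were labelled epithelial, and their basal keratins Krt5 and Krt14 ranked 8 to 33.

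The 7 members held 38.8% and 38.4% of all keratin reads in the K14 controls, 30.5% and 23.6% after K14 ablation, 43.4% and 44.3% in the Lrig1 controls, and 16.1% and 25.2% after Lrig1 ablation. Both ablation groups were below their controls. The basal keratins Krt5, Krt14 and Krt15 did not pass the threshold in either ablation, with a median log2 difference of 0.37 in K14 and 0.17 in Lrig1. Krt5 was at 78928 and 29637 normalised reads in Lrig1 ablation against 33207 and 37784 in Lrig1 control, so its direction there turned without Lrig1 ablation 1 (-0.26). The reads of the 7 over those of Krt5 and Krt14 were 0.802 and 0.794 in the K14 controls, 0.546 and 0.390 after K14 ablation, 1.84 and 1.93 in the Lrig1 controls, and 0.237 and 0.552 after Lrig1 ablation. The ablation groups overlapped in this ratio. With Krt1 and Krt10 left out they did not, at 0.0744 and 0.0709 in K14 ablation and 0.0363 and 0.0524 in Lrig1 ablation.

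The wound keratins, which keratinocytes induce after injury, were at higher levels in K14 ablation, with log2 differences of 2.55 ± 0.50 for Krt6b, 1.94 ± 0.33 for Krt6a, 1.85 ± 0.43 for Krt16 and 1.70 ± 0.17 for Krt17. Of these, 1 of 4 passed, Krt17 (adjusted p = 0.0159), where 0.187% of all genes did, and the others had adjusted p of 0.0933 to 0.172. In Lrig1 ablation Krt17 fell by 0.78 ± 0.17 on the log2 scale (adjusted p = 0.0465), and the other 3 were between 0.03 and 0.59. For Krt6a, Krt6b and Krt16 the Lrig1 ablation libraries lay on both sides of their controls, as in Krt6a with 7754 and 3487 normalised reads against 4541 and 5173. That call of Krt17 was lost with TMM scaling (adjusted p = 0.0551), edgeR (adjusted p = 0.0651), no filter (adjusted p = 0.0712) and only the groups compared (adjusted p = 0.152). Both calls of Krt17 were lost without any 1 of the 4 control libraries, and the call in K14 ablation also with only the groups compared (adjusted p = 0.079). Outside the suprabasal set, 38 keratin genes were tested. In Lrig1 ablation 10 of the 38 fell and 0 rose, with a median of -1.16, against 3.3% of all genes tested that fell. Between the controls 15 were higher in Lrig1, with a median of 1.33, against 6.52% of all genes tested. Hard keratins made up 7 of those 10 and 9 of those 15. Some hard keratins, such as Krt33a, Krt33b, Krt81 and Krt86, reached the filter on low values only in the Lrig1 control libraries. The counts and medians of the 38 are thus partly set by the filter.

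Genes that work beside these keratins were described from lists that were chosen, like the members, with earlier results of these data known. In Lrig1 ablation 3.3% of all genes tested fell past the threshold. Of 12 spinous layer genes 9 fell there (median log2 difference -1.61, against -0.02 over all genes). They included Dsc1, a desmosomal cadherin, at -2.60 ± 0.34, the calmodulin-like Calm4 at -2.03 ± 0.18 and suprabasin, Sbsn, at -1.97 ± 0.20. Of 17 granular and cornified layer genes 11 fell (median -2.68), including the fused S100 proteins Hrnr at -6.05 ± 0.53 and Flg2 at -4.90 ± 0.69, and Cnfn at -3.95 ± 0.55. Hrnr, Flg2 and Cnfn were at 2.66, 0 and 6.21 normalised reads in Lrig1 ablation 1, near the count floor, so their fitted differences depend on the value added before log2. Flg2 reached the filter on low values only in the Lrig1 control libraries, so it was tested only because it was high there. In K14 ablation 0 of the 12 and 0 of the 17 passed in limma, as did 0.187% of all genes. An unadjusted p under 0.05 was found in 5 and 2, and in 12.8% of all genes. The medians were -0.53 and -0.27.

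Of 9 keratin filament anchors tested 5 fell in Lrig1 ablation (median -1.03), where 3.3% of all genes tested fell. They included the plakin Evpl at -1.64 ± 0.19, plakoglobin, Jup, at -1.11 ± 0.17, and Perp, a desmosome component, at -1.08 ± 0.22. Of 17 differentiation regulators 8 fell (median -1.10), including the transcription factors Ovol1 at -2.01 ± 0.23 and Grhl3 at -1.87 ± 0.26. No gene of the 4 lists passed as higher there. Dst, a plakin of the hemidesmosome that was picked out after its values were seen, lay the other way without overlap, at 37502 and 25515 normalised reads against 18570 and 19674 in Lrig1 control (0.69 ± 0.26, adjusted p = 0.193), and 3 regulators were between 0.03 and 0.18. In K14 ablation 0 of 9 anchors and 0 of 17 regulators passed in limma, where 0 and 4 had an unadjusted p under 0.05 (12.8% of all genes). Between the controls 4 spinous, 15 granular and cornified, 2 anchor and 5 regulator genes were higher in Lrig1, and none was lower. Of all genes tested, 6.52% were higher there.

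Markers of some other cell types moved with the Lrig1 groups. Sums of fibroblast, T cell, melanocyte and erythroid markers overlapped between those groups. Sweat gland sums were lower in Lrig1 ablation, at 1034 and 2454 against 3381 and 3440 in Lrig1 control. Sebaceous sums were also lower, but nearly met, at 6532 and 4471 against 6632 and 6562. Merkel cell sums were higher, at 99.4 and 27.1 against 24.4 and 19.7. They rested mainly on Krt8 and Krt18, and Atoh1, Sox2 and Isl1 were under the count floor in every library. The summed level of 8 endothelial markers was 965 and 1067 normalised reads in Lrig1 control, 54.1 and 135 in Lrig1 ablation, and 56.8 to 105 in K14. Of the 8, 6 fell in Lrig1 ablation, against 3.3% of all genes tested. Sele, Selp and Emcn reached the filter on low values only in the Lrig1 control libraries. They were tested only because they were high there, so that count is partly set by the filter. The summed level of the myeloid and Langerhans cell markers was 1087 and 1496 in Lrig1 control, 282 and 209 in Lrig1 ablation, and 532 to 1850 in K14. The 11 basal keratinocyte markers summed to 106808 and 116485 in Lrig1 control and to 215221 and 91544 in Lrig1 ablation. Mitochondrial reads were 6.29% and 6.89% in Lrig1 control, and 2.34% to 4.14% in the other 6 libraries. No marker list had a gene at 0 in all libraries. The part of these differences in the keratin results was not tested.

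The 5 type II members lie within 607 kb of the chromosome 15 cluster, and the 2 type I members within 109 kb of the chromosome 11 cluster. The correlation between neighbouring members varied. Krt1 and Krt77 are 7.94 kb apart with no other keratin gene between them, and their log2 values over the 8 libraries had a Pearson r of 0.0572. Krt2 and Krt1, 27.3 kb apart, had an r of 0.412, and Krt77 and Krt78, 76.3 kb apart, one of 0.81. Krt77 and Krt80, with Krt1, Krt2 and other keratin genes between them, had an r of 0.977, the highest among the 21 pairs of members. Krt2 and Krt10, on different chromosomes, had an r of 0.925, and Krt10 and Krt24 had one of 0.914. The 8 points share groups and library scaling, so these values are descriptions.

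RefSeq promoter sequences were at hand for 5 of the 7 members (GRCm38.p6). Of these, Krt77 was lower in Lrig1 ablation without overlap but did not pass the threshold, and its sequence is not printed. The 4 that fell past the threshold there are printed here, so that they can be compared by eye. Each is the 250 bases before the annotated start, 5′ to 3′ on the minus strand. They lie at chr15:101818170-101818419 for Krt2, chr11:99389365-99389614 for Krt10, chr11:99285263-99285512 for Krt24 and chr15:101954288-101954537 for Krt78. Capitals mark TATATA or TATAAA, in overlap where both occur, in the window from 40 to 16 bases before the start.
Krt2: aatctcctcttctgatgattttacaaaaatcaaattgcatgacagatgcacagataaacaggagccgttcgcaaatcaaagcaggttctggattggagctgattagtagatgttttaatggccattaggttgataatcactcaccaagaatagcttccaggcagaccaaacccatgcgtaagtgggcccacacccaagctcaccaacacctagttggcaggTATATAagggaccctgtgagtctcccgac
Krt10: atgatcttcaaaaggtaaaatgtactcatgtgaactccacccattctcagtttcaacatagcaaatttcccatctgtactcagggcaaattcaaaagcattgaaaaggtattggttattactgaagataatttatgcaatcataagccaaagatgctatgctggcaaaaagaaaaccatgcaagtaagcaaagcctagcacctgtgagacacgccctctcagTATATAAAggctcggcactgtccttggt
Krt24: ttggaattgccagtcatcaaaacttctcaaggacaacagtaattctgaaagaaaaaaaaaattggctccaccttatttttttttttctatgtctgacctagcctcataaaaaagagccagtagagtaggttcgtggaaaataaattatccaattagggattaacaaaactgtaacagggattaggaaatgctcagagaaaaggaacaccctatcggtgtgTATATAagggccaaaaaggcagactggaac
Krt78: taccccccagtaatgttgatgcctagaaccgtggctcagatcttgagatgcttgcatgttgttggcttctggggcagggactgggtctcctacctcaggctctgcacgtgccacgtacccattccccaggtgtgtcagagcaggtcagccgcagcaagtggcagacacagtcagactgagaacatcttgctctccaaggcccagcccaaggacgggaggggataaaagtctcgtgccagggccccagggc

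The motifs were chosen after the sequences were seen. TATATA or TATAAA stood in that window on the gene's strand in 4 of the 5 members with a sequence (Krt2, Krt10, Krt24 and Krt77) and in 2.73% of 32851 promoters. On both strands and over all 250 bases, the AP-1 motif TGANTCA, the AP-2 motif GCCNNNGGC and the RBPJ motif GTGGGAA were in none of the 5, and in 6.75%, 13.7% and 5.42% of all promoters. The KLF motif CACCC was in 3 of the 5 (Krt2, Krt10 and Krt24) and in 52% of all promoters. A match describes the letters in this window, and these data do not measure binding there.

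The gene whose values followed Krt10 most closely over the 8 libraries was Gm11940 (Pearson r 0.9989). Others among the closest were Lypd3, a surface protein of differentiating keratinocytes (0.9889), Gm26550 (0.9859) and Hipk3, a protein kinase (0.9806). Gm11940 (chr11:99387340-99387897, plus strand) is annotated as an antisense gene inside Krt10. Its reads were 0.344 to 0.375 of those of Krt10 in all 8 libraries. No source used here gives the strand setting of the counting, so reads of Krt10 and Gm11940 cannot be told apart. Of the 2113 stretches of 50 bases in Krt10 transcripts, 50 occur in Gm11940 on the opposite strand.

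**Figure D4:**
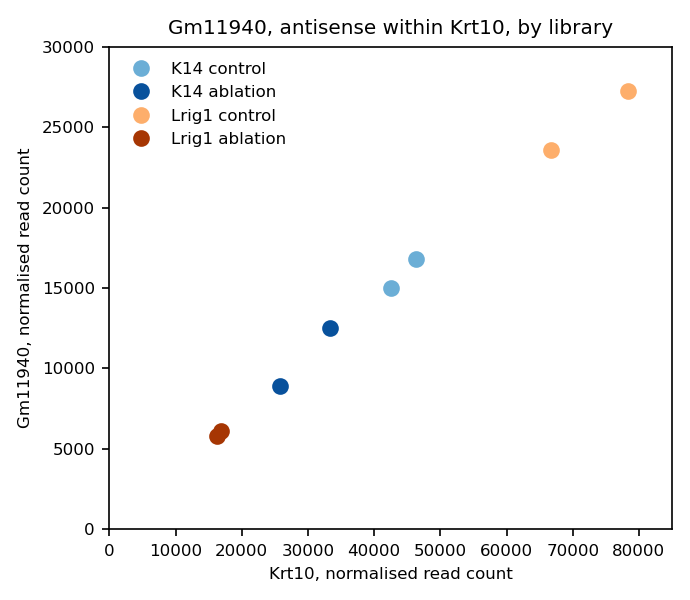
Normalised read count of the antisense gene Gm11940 (vertical axis) against Krt10 (horizontal axis), both from 0, with 1 point per library coloured by group. The points lie near 1 line through the origin, at a ratio of 0.344 to 0.375.

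The genes most like Krt1 were Plcb3, a phospholipase C (r 0.9724), Eif2ak3, a kinase of the unfolded protein response (0.9722), Il20rb, an interleukin receptor chain (0.9557), Lrp1, an endocytic receptor (0.9522), and Stk4, a Hippo pathway kinase (0.9460). None of them is among the 5 genes most like Krt10, and r between Krt1 and Krt10 was 0.505. Plcb3 was at 1070 and 1076 normalised reads in the K14 controls, 1506 and 1210 after K14 ablation, 1207 and 1294 in the Lrig1 controls, and 999 and 868 after Lrig1 ablation. Like Krt1 it was above its controls in both K14 ablation libraries and below them in both Lrig1 ablation libraries, over a narrower range.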

How the data were processed

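The authors deposited 1 table of normalised read counts, a signal in which each gene's reads are divided by a factor of its library. Per the submitters' processing notes, Trimmomatic, STAR, Picard and HTSeq 0.11.1 were used with GRCm38 (mm10), and per the labels' protocols RNA came from sorted cells and libraries from the Ovation Solo kit. All values were whole multiples of 1 step per library (100% within 0.001), so reads were recovered for edgeR and DESeq2. The columns named Exp were taken as the ablation samples, the groups left over for them. No row lacked a gene identifier. Members and lists were chosen with earlier results of these data known.

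Groups were compared with limma (version 3.58.1, R 4.3.3), using a mean-variance trend, on log2(value + 1), in 1 fit of 4 group means over 8 libraries (4 residual and 4.13 prior degrees of freedom). Genes that reached 1e-06 of a library's total in 2 or more libraries were tested, 18140 in all, with Benjamini-Hochberg adjustment and a threshold of 0.05. Fold changes are of means of normalised reads, and log2 differences are of log2(value + 1), which understates low genes. edgeR 4.0.16 and DESeq2 1.42.0 were alternatives. The code was tested on simulated data with the same dispersion in all libraries. The groups here differ in spread, so this does not test how the fit performs on them. All 7 members were named in each comparison, basal and wound keratins where set beside them, at most 3 called genes of the largest difference from each other list, and the 5 genes most correlated with Krt10 and with Krt1, of which some are not reported here. Lists not described in the report are counted in the closing section. Coordinates and lengths are from GENCODE M21 on GRCm38, and promoters from RefSeq.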

Additional observations from a re-analysis of the deposited data

Results flagged for a closer look

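Among the genes reported here, 5 had an ablation effect that differed between Lrig1 and K14 in limma (Lrig1 minus K14, log2 scale, 2 libraries a group), and none is a suprabasal keratin. Krt17, a wound keratin, was at -2.48 ± 0.24 (SE, adjusted p = 0.0384). Krt84, a hard keratin, was at -2.83 ± 0.33 (adjusted p = 0.0401). The endothelial genes Sele, Cdh5 and Emcn were at -7.23 ± 0.94 (adjusted p = 0.0401), -5.42 ± 0.59 (adjusted p = 0.0384) and -6.23 ± 0.82 (adjusted p = 0.0401). Sele and Emcn reached the filter on low values only in the Lrig1 control libraries. Without any 1 of the 4 control libraries, no gene passed in limma in this comparison (Krt17 then had adjusted p of 0.263 to 0.411).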

How the results depend on the processing

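With TMM scaling or 0.5 added before log2, the count of members past the threshold was the same in each of the 5 comparisons. DESeq2 called 3 members in K14 ablation, 5 in the difference of effects and 3 in Lrig1 against K14 ablation, each 0 in limma and edgeR. With 5 added before log2 the difference of effects had 1 (Krt78, -2.68), where 0.458% of all genes were called. With only the groups compared in the fit all 7 were called between the controls, but so were 40.1% of all genes tested. Leaving out 1 library at a time gave 0 to 2 members in K14 ablation, 0 to 6 in Lrig1 ablation, 0 to 5 in the difference, 0 to 5 between the controls and 0 to 5 between the ablation groups. Over all genes, the same gave 0 to 740, 5 to 2498, 0 to 2022, 1 to 3539 and 0 to 4041 calls, against 34, 737, 36, 1594 and 121, and the 4041 were called without Lrig1 ablation 1.

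DESeq2 called 221 genes in K14 ablation (94 higher and 127 lower, against 18 and 16 in limma), 303 in the difference and 666 between the ablation groups. With only the groups compared, 0 genes were called in K14 ablation, 170 in Lrig1 ablation, 7269 between the controls and 0 between the ablation groups. With 5 added, 83 were called in the difference. With no filter, 5 were called in the difference and 75 between the ablation groups, and with the stricter filter (1e-05) 2 and 72. Same-numbered libraries did not deviate together over all genes tested (correlations of deviations -0.0491 to 0.0838). This cannot exclude that they were prepared together, since the titles give only a number. The replicate block gave 21 genes in K14 ablation and 1 in the difference, and changed no call of a member, but ended Krt17's calls in Lrig1 ablation (adjusted p = 0.0735) and in the difference (adjusted p = 0.088). The cause of these changes was not tested.

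Among the settings run, directions turned only where 1 library was left out, and in no called value of a member. Over those fits the log2 difference in K14 ablation ranged from -0.50 to 0.75 for Krt77 (-0.50 without K14 ablation 2, -0.12 without K14 control 2) and from -0.71 to 0.13 for Krt80 (0.13 without K14 ablation 1). In Lrig1 ablation Krt5 ranged from -0.26 to 1.16 and Krt14 from -0.62 to 0.70, the lowest without Lrig1 ablation 1. In the difference Krt5 ranged from -0.64 to 0.77 (-0.64 without Lrig1 ablation 1, -0.03 without Lrig1 control 1) and Krt14 from -0.98 to 0.33. Between the ablation groups Krt24 ranged from -1.36 to 0.10 (0.10 without K14 ablation 2). The fits without a library leave its group with 1, assumed to vary like the others. The length used was also changed to the longest transcript, as planned, and to the longest protein-coding one, added after the data were seen. With 2 libraries a group, Krt77 and Krt78 also had few reads.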

Other observations

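Of the hard keratins, best known from hair and nail, 7 of 12 tested fell in Lrig1 ablation (3.3% of all genes tested). In Lrig1 control 9 of 12 were higher than in K14 control (6.52% of all genes tested). Some of them, such as Krt33a, Krt33b, Krt81 and Krt86, reached the filter on low values only in the Lrig1 control libraries. They were tested only because they were high there, so both counts are partly set by the filter. The 2 Lrig1 control libraries also differed in such genes, as in Krt33a with 31.4 and 234 normalised reads. Krt36 and Krt84, named after their values were seen, were the most abundant hard keratins. Krt84 was at 12354 and 12681 normalised reads in the K14 controls, 4587 and 6095 after K14 ablation, 31890 and 36926 in the Lrig1 controls, and 2465 and 1693 after Lrig1 ablation. Krt36 was at 8122 and 8038 in the K14 controls, 1978 and 3991 after K14 ablation, 18064 and 20536 in the Lrig1 controls, and 1354 and 748 after Lrig1 ablation. Every ablation library was below every control library in both genes, as in Krt2 and Krt24. The share of all genes with this pattern was not counted. Within a single population, 25.7% of genes tested were lower without overlap in K14 ablation and 26.4% in Lrig1 ablation. Both fell in Lrig1 ablation, Krt84 at a log2 difference of -4.07 ± 0.23 (adjusted p = 0.001) and Krt36 at -4.26 ± 0.36 (adjusted p = 0.00207).

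Of the inner root sheath and companion layer keratins 1 of 7 tested fell in Lrig1 ablation, Krt73, where 3.3% of all genes fell. In Lrig1 control 4 of 7 were higher than in K14 control, as were 6.52% of all genes. Of 5 keratins of other stratified epithelia 1 fell in Lrig1 ablation, Krt12, to 3.55 and 1.59 normalised reads, near the count floor. The other 4 went up there without passing, and the median log2 difference of the 5 was 1.03. Among these 5, 3 had an unadjusted p under 0.05 in limma, as did 20.1% of all genes. Of 5 simple epithelial keratins tested none passed in limma, with 2 at an unadjusted p under 0.05, as were 20.1% of all genes. In Lrig1 ablation 1 of 6 fibroblast markers and 2 of 9 myeloid and Langerhans cell markers fell. None passed there among 11 basal keratinocyte, 2 T cell, 6 melanocyte, 2 Merkel cell, 8 sebaceous gland, 3 eccrine sweat gland and 1 erythroid marker tested in limma. The sweat gland list holds Krt77 itself.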
